A study of Homo sapiens with 16 samples.

Results

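DNA topoisomerase II alpha (TOP2A) peaks that lay on no RNA polymerase II (Pol II) peak were examined in hTERT RPE-1, a telomerase-immortalised human line from the retinal pigment epithelium. The regions were chosen by the positions of called peaks: a TOP2A peak on chromosomes 1 to 22 was kept when it shared no base with a Pol II peak of any of 3 lists and had no other TOP2A peak within 1 kb. This gave 322 regions out of 1840 TOP2A peaks in all, of which 1824 lay on chromosomes 1 to 22. They are called unpaired TOP2A peaks here. The 1037 isolated TOP2A peaks that did lie on a Pol II peak of at least 1 list are called paired peaks.

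All cells were wild type by label and were held in 0.1% serum for 48 h before fixation in 1% formaldehyde. Pol II was immunoprecipitated with an antibody to the amino-terminal part of its largest subunit, RPB1. TOP2A libraries came from untreated cells only (2 libraries). Pol II libraries came from control cells, either given vehicle (DMSO) for 30 min (3) or untreated (3), and from cells given 200 uM merbarone for 30 min (3) or 1 h (2). The 3 IgG libraries were not analysed here. Each condition was represented by 1 list of peaks on hg19, and vehicle and untreated cells shared the control list, so values come without a replicate spread and no test between conditions could be made. The peaks carry no height or score, and depth is unknown.

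TOP2A cuts both strands of a DNA duplex, passes another duplex through the break and seals it again. It removes the supercoils that build up ahead of and behind moving polymerases, and it also separates intertwined sister DNA molecules, including those at centromeres, before cells divide. TOP2A is made mainly by dividing cells, and serum starvation drives most cultured cells out of the cell cycle. Merbarone blocks the catalytic cycle of type II topoisomerases.

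Among isolated TOP2A peaks, 322 of 1359 (23.7%, 95% Wilson interval 21.5 to 26) lay on no Pol II list. Among the 465 TOP2A peaks that had another TOP2A peak within 1 kb, 37 did (7.96%, 5.83 to 10.8). Both shares follow from the selection and are given as a description. The Wilson intervals here and below cover counting only and treat neighbouring peaks as independent. Of the isolated TOP2A peaks, 948 lay on all 3 Pol II lists, and 89 on 1 or 2 of them. Within those 89 peaks, 15 lay on the control list alone, 13 on the 30 min list alone, 18 on the 1 h list alone and 18 on both merbarone lists without the control list.

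The unpaired peaks were not all far from Pol II. The distance to the nearest Pol II peak of any list had a median of 17.2 kb, with quartiles at 1.03 and 57.5 kb. A group of 80 (24.8%, 20.4 to 29.8) stood within 1 kb of a Pol II peak, and another 59 (18.3%) stood 1 to 10 kb away. The largest group, 128 peaks (39.8%, 34.6 to 45.2), stood 10 to 100 kb away, and 55 (17.1%, 13.4 to 21.6) were over 100 kb away. Thus 183 of the 322 (56.8%, 51.4 to 62.1) had no Pol II peak within 10 kb, and the name "away from Pol II" describes these better than the 80 that bordered it.

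At the near edge, the unpaired peak on chromosome 4 from 109094037 to 109094109 stood 5 bp from a control Pol II peak, 41 bp from one at 30 min and 63 bp from one at 1 h. The peak on chromosome 6 from 24646135 to 24646207 stood 141, 304 and 20 bp from Pol II in the control, 30 min and 1 h lists. On chromosome 19 from 19600996 to 19601068 these distances were 25, 551 and 491 bp. These 3 bordered Pol II in every list. On chromosome 5 from 16680221 to 16680293 control Pol II stood 11179 bp away, Pol II at 30 min 989 bp and Pol II at 1 h 19 bp, so it stood within 1 kb in both merbarone lists but not in control. Just outside the limit, the TOP2A peak on chromosome 6 from 112484663 to 112484735 shared 1 bp with Pol II and that on chromosome 2 from 165697481 to 165697553 shared 4 bp. Such partial contact was uncommon, since 1000 of the 1037 paired peaks (96.4%) lay wholly inside a Pol II peak of at least 1 list. The other limit of the selection was met most closely by a pair of unpaired peaks on chromosome 1, from 2628032 to 2628111 and from 2629216 to 2629293, which stood 1105 bp apart. The nearest TOP2A peak to miss it, on chromosome 10 from 118032925 to 118032997, had a neighbour at 959 bp.

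At the far edge were a pair of TOP2A peaks on chromosome 15, from 20545620 to 20545735 and from 20555466 to 20555574. They lay 2.29 and 2.28 Mb from the nearest Pol II peak, 9731 bp from each other, and in a stretch without Pol II in any list. The next farthest lay on chromosome 16 from 33293868 to 33294073, 1.36 Mb from Pol II, and on chromosome 2 from 90485337 to 90485440, 1.32 Mb from Pol II. The fifth was again on chromosome 16, from 33241083 to 33241173, at 1.31 Mb. In all, 8 unpaired peaks were over 1 Mb from Pol II, and 7 of them lay within 3 Mb of a centromere. The exception, on chromosome 1 from 238226776 to 238226853, lay 1158 kb from Pol II.

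**Figure D1:**
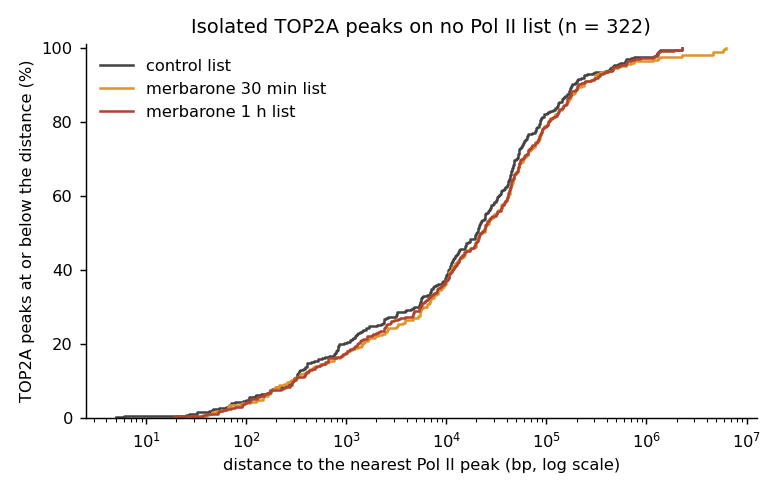
Distance from each of the 322 unpaired TOP2A peaks to the nearest Pol II peak, on a log axis in bp, as the cumulative share of peaks in percent, for the control, 30 min and 1 h lists. The curves run close together, with medians of 20.1, 22.3 and 22 kb, and the 30 min curve alone extends past 2.29 Mb, to 6.30 Mb.

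The distances were much alike in the 3 Pol II lists. The median was 20.1 kb to the control list, with quartiles at 2.10 and 60.4 kb. It was 22.3 kb to the 30 min list, with quartiles at 3.27 and 83.7 kb. To the 1 h list it was 22 kb, with quartiles at 2.54 and 81.4 kb. Within 1 kb of a Pol II peak stood 65 unpaired peaks (20.2%, 16.2 to 24.9) by the control list, 57 (17.7%, 13.9 to 22.2) by the 30 min list and 57 by the 1 h list. For 197 of the 322 (61.2%) the distances in the 3 lists differed by less than 1 kb. Read peak by peak, the nearest Pol II peak at 30 min was closer than in control by over 1 kb for 24 unpaired peaks and farther by over 1 kb for 49. At 1 h it was closer for 49 and farther for 60. The lists do not share the same smallest width, which was 136 bp in control, 150 bp at 30 min and larger still at 1 h, so the control list can hold narrow peaks that the other lists lack. With all lists given the limits of the 1 h list, the medians were 24.4 kb for control, 23.6 kb for 30 min and 22 kb for 1 h. Control was then the farthest list and not the nearest.

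Of the 80 unpaired peaks that bordered Pol II within 1 kb in some list, 42 did so in all 3 lists. The control list alone did for 10, the 30 min list alone for 5, the 1 h list alone for 8 and both merbarone lists without control for 2. Drug and control lists thus each reached within 1 kb of a few TOP2A peaks where other lists did not. These counts depend on the 1 kb limit and do not show that a Pol II peak was missing from a list. For the peak on chromosome 5 from 150016252 to 150016334, only the 30 min list met the limit, at 860 bp. Pol II of the other lists stood just past it, at 1132 bp (control) and 1006 bp (1 h). In other cases the lists differed by over 100 kb, as given below.

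Only 22 unpaired peaks had distances that differed by over 100 kb between lists. On chromosome 2 from 177502680 to 177502787, TOP2A stood 6 bp from a control Pol II peak, but 297 kb from Pol II at 30 min and 368 kb at 1 h. On chromosome 4 from 96469221 to 96469294 the nearest Pol II peak was 617 kb away in control, 938 bp away at 30 min and 869 kb away at 1 h. On chromosome 14 from 48144784 to 48144879 it was 281 bp away in control, 171 bp at 30 min and 1890 kb at 1 h. In the first case the adjoining Pol II peak was listed in control alone, in the second at 30 min alone and in the third in control and at 30 min. The 6 largest differences all lay on chromosome 21 between 9439581 and 11167189, beside the centromere. There the nearest peak was 1304 bp to 1257 kb away in control, 4575 to 6303 kb away at 30 min and 1413 bp to 1262 kb away at 1 h, since the control and 1 h lists each held 1 Pol II peak in that stretch, at different places, and the 30 min list held 0.

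Pol II peaks were fewer around the unpaired peaks. Within 100 kb on either side they had a median of 4 control Pol II peaks, with quartiles at 1 and 17, against 12 around paired peaks, with quartiles at 4 and 34, where the Pol II peaks under TOP2A itself were not counted. No control Pol II peak at all stood within 100 kb of 58 unpaired peaks (18%, 14.2 to 22.6), against 47 paired peaks (4.53%, 3.43 to 5.97). A control Pol II peak within 5 kb on both sides was found for 14 unpaired peaks (4.35%) and for 274 paired peaks (26.4%). Of the 80 unpaired peaks within 1 kb of Pol II in some list, 11 had control Pol II within 5 kb on both sides, 60 on 1 side and 9 on neither. Flanking Pol II peaks of the merbarone lists were not counted. The selection kept TOP2A off Pol II, so these differences are partly built in and were not tested.

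**Figure D2:**
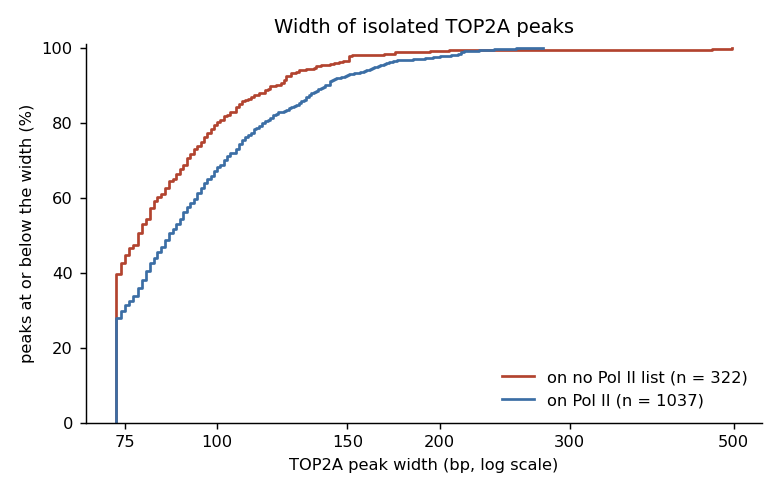
Width of unpaired (322) and paired (1037) isolated TOP2A peaks in bp on a log axis, as the cumulative share in percent. Both curves start at the smallest width of 73 bp, where 39.8% of unpaired and 28% of paired peaks stood, and the unpaired curve lies to the left up to 200 bp and ends at 497 bp, past the widest paired peak at 276 bp.

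Width was described because no score was given, and its relation to the strength of a peak is unknown. Unpaired peaks were slightly narrower, with a median of 78 bp and quartiles at 73 and 95.8 bp, against a median of 86 bp and quartiles at 73 and 108 bp for paired peaks. The smallest width in the TOP2A list, 73 bp, was held by 128 unpaired peaks (39.8%, 34.6 to 45.2) and by 290 paired peaks (28%, 25.3 to 30.8). At least 150 bp were spanned by 11 unpaired peaks (3.42%, 1.92 to 6.01) and by 77 paired peaks (7.43%, 5.98 to 9.18). A wider peak has more room to touch Pol II, so width is not independent of the selection and no test was made. Width differed little with distance from Pol II. The median was 79.5 bp within 1 kb, 73 bp at 1 to 10 kb, 80 bp at 10 to 100 kb and 78 bp beyond. The share at 73 bp was highest at 1 to 10 kb, at 52.5% (40 to 64.7), against 33.8% (24.3 to 44.6) within 1 kb.

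Against this general order, the 2 widest peaks of the whole TOP2A list were unpaired. The first measured 497 bp, lay on chromosome 8 from 11565905 to 11566401 and stood 60.4 kb from Pol II in every list. The next spanned 468 bp on chromosome 21 from 9826522 to 9826989, 83.4 kb from Pol II in control, 5.92 Mb at 30 min and 77.5 kb at 1 h. Both were wider than every paired peak, the widest of which spanned 276 bp on chromosome 1 from 86046667 to 86046942. The third, of 206 bp, was the chromosome 16 peak far from Pol II named above. The fourth, of 194 bp on chromosome 3 from 61547714 to 61547907, stood only 136 bp from a 1 h Pol II peak, and the fifth, of 174 bp on chromosome 4 from 140656260 to 140656433, stood 16.6 kb from control Pol II and 68.6 and 69 kb from Pol II at 30 min and 1 h. Wide unpaired peaks thus occurred both beside Pol II and far from it.

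**Figure D3:**
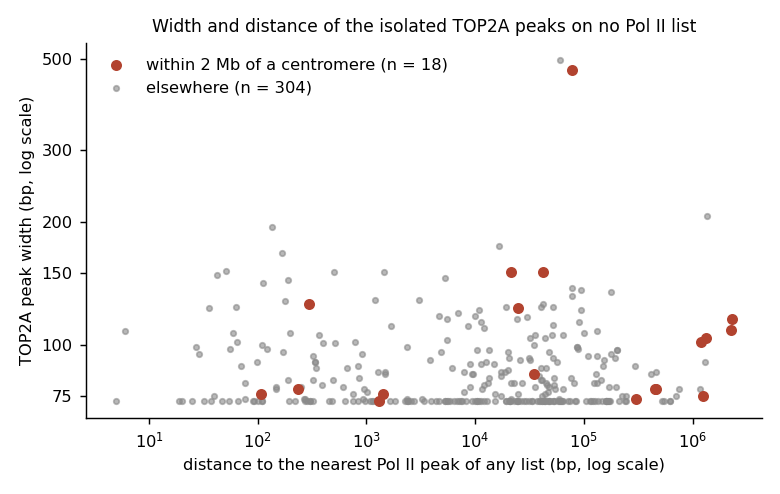
Width of each of the 322 unpaired TOP2A peaks in bp against its distance to the nearest Pol II peak of any list in bp, both on log axes, with the 18 peaks within 2 Mb of a centromere marked. Points at 73 bp run along the whole distance axis, and the marked peaks include the one of 468 bp and 5 of those over 1 Mb from Pol II.

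Unpaired peaks were spaced from other TOP2A peaks much as paired ones were, though a smaller share had one within 10 kb. Those numbered 19 unpaired peaks (5.90%, 3.81 to 9.03) and 99 paired peaks (9.55%, 7.90 to 11.5), with overlapping intervals. The nearest other TOP2A peak stood a median of 335 kb away, against 343 kb for paired peaks, and within 100 kb for 82 unpaired peaks (25.5%, 21 to 30.5) and 278 paired peaks (26.8%, 24.2 to 29.6). Of these 82 unpaired peaks, 46 had another unpaired peak within 100 kb and 41 a TOP2A peak on Pol II. The nearest TOP2A peak lay on Pol II for 222 of the 322. With unpaired peaks joined where they stood within 100 kb of each other, there were 20 groups, and 4 of them held 3 or more.

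The tighter of the groups of 4 unpaired peaks spanned 45.5 kb on chromosome 1 from 2583811 to 2629293, with widths of 79, 124, 80 and 78 bp. Their distance from Pol II grew from 8.91 to 54.3 kb along the group. Another 4 stood within 50 kb on chromosome 8 from 11565905 to 11615944, with widths of 497, 87, 110 and 122 bp, at 60.4, 20.2, 12.2 and 10.8 kb from Pol II. Neither stretch held any other TOP2A peak. A group of 3 lay on chromosome 10 from 134676806 to 134698469, with widths of 132, 122 and 107 bp, 77.8 to 99.3 kb from Pol II, and no Pol II peak of the 1 h list lay within 324 kb of it. The other group of 3 was that on chromosome 21 from 9826522 to 9911889, with widths of 468, 76 and 73 bp.

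**Figure D4:**
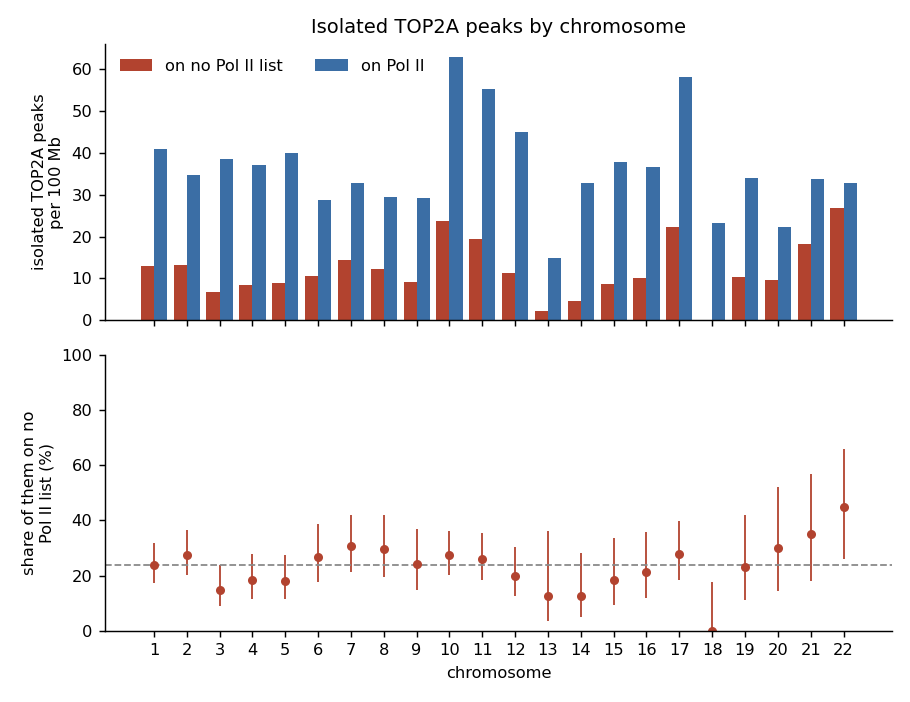
Isolated TOP2A peaks by chromosome. The upper bars give unpaired and paired peaks per 100 Mb, and the lower points give the unpaired share in percent with 95% Wilson intervals, around the dashed line at the share over all chromosomes (23.7%). Chromosomes 10, 11, 17 and 22 were high in unpaired peaks per 100 Mb, and chromosome 18 had none.

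The unpaired peaks were spread over 21 of the 22 chromosomes. Chromosomes 1, 2 and 10 held 32 each, together 29.8% of all. Per 100 Mb between the first and last peak of any list, the rate over all chromosomes was 11.6 for unpaired and 37.3 for paired peaks. Unpaired peaks were densest on chromosome 22, with 9 peaks or 26.7 per 100 Mb, followed by chromosome 10 with 23.7, chromosome 17 with 22.3 and chromosome 11 with 19.4. Per 1000 control Pol II peaks the order differed, led by 8.78 on chromosome 21, 6.64 on chromosome 10, 6.49 on chromosome 8, 5.62 on chromosome 2 and 5.47 on chromosome 22. Chromosome 17, at 3.42, stood below the 3.72 over all chromosomes. The lead of chromosome 21 rested on 7 unpaired peaks, of which 6 lay within 2 Mb of its centromere. Per 100 Mb unpaired peaks were sparsest on chromosomes 18, 13 and 14, with 0, 2 and 4 peaks. On chromosome 18, 0 of 18 isolated TOP2A peaks were unpaired, which allows a share of up to 16.7%. The unpaired share was 45% (25.8 to 65.8) on chromosome 22, from 20 isolated peaks, and 35% (18.1 to 56.7) on chromosome 21. On chromosome 3 it was 14.8% (8.84 to 23.7). The intervals of chromosomes 3, 18 and 22 left out the overall 23.7%, that of chromosome 3 narrowly at its upper end, while those of the other 19 held it.

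Chromosome 10 was rich in both kinds of TOP2A peak, and chiefly on its long arm. Of its 32 unpaired peaks, 31 lay on the long arm, with 72 paired ones, against 1 unpaired and 13 paired peaks on the short arm. Past 60 Mb, a point set after the positions were seen, the chromosome had 38.5 unpaired and 94.3 paired peaks per 100 Mb, against 11 and 36 on the other chromosomes. Pol II was less raised there, with 40 control peaks per Mb past that point against 30.9 on the other chromosomes. The unpaired share there, 29% (21 to 38.5), stood beside 23.3% (21.1 to 25.8) on the other chromosomes, and the difference was not tested. This line is known to carry an extra copy of a long arm segment of chromosome 10. Copy number was not measured here and its part in these counts was not tested. The end of the arm stood apart, since from 130 Mb on there were 7 unpaired and 2 paired peaks. The 10 Mb window with most unpaired peaks lay on chromosome 11 from 70 to 80 Mb, with 8 unpaired and 7 paired peaks.

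**Figure D5:**
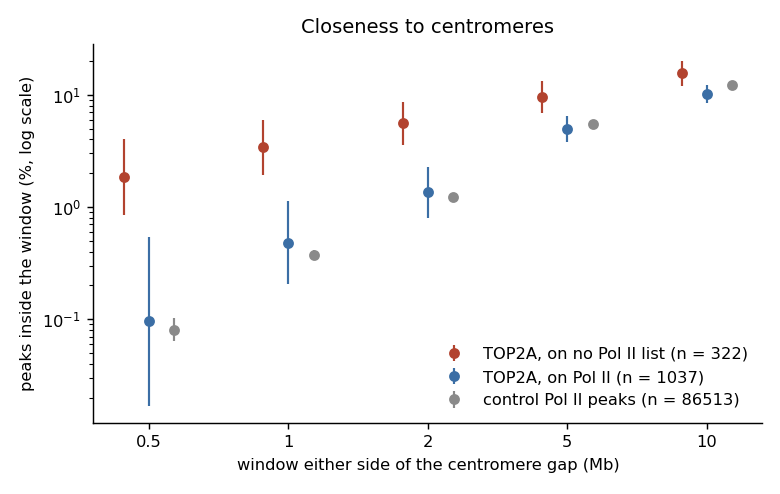
Share of unpaired TOP2A peaks, paired TOP2A peaks and control Pol II peaks, in percent on a log axis, that lay within 0.5, 1, 2, 5 or 10 Mb of a centromere gap, with 95% Wilson intervals. The unpaired share stands above the other shares in every window, with the widest ratio to paired peaks at 0.5 Mb (6 unpaired peaks, 1.86%, against 1 paired peak, 0.0964%) and the widest difference at 10 Mb (15.5% against 10.1%).

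Unpaired peaks lay near centromeres more often than paired peaks or Pol II did. Distance was taken to the 3 Mb gap that stands for each centromere in hg19, where no sequence is given and so no peak of any list can lie. Within 5 Mb of it were 31 unpaired peaks (9.63%, 6.87 to 13.3), against 51 paired peaks (4.92%, 3.76 to 6.41) and 5.45% (5.30 to 5.61) of 86513 control Pol II peaks. Within 2 Mb were 18 unpaired peaks (5.59%, 3.56 to 8.66), against 14 paired peaks (1.35%, 0.806 to 2.25) and 1.23% of control Pol II peaks. Within 1 Mb were 11 unpaired peaks (3.42%, 1.92 to 6.01), against 5 paired peaks (0.482%, 0.206 to 1.12) and 0.375% of control Pol II peaks. The share of paired peaks stood near that of Pol II in each of these windows, and that of unpaired peaks stood above both. The selection kept unpaired peaks off Pol II, so these differences are partly built in. No test was made, since neighbouring peaks are not independent and the TOP2A libraries have 1 list. Without chromosomes 13, 14, 15, 21 and 22, a choice made after seeing the data, 3.41% (1.86 to 6.17) of unpaired and 1.49% (0.889 to 2.48) of paired peaks lay within 2 Mb, so their intervals overlapped. When the widest stretch without any peak was taken in place of the gap on each chromosome, which held the gap on 12 of the 22, 9.32% (6.60 to 13) of unpaired and 8.10% (6.59 to 9.92) of paired peaks lay within 5 Mb.

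The unpaired share was highest next to the centromere. This share depends on how much Pol II lies nearby, so it is partly built in by the selection and was not tested. Of isolated TOP2A peaks within 2 Mb of a centromere, 18 of 32 were unpaired (56.3%, 39.3 to 71.8). The unpaired share was 26% (15.9 to 39.6) at 2 to 5 Mb, 26% (17.3 to 37.1) at 5 to 10 Mb, 20% (14.5 to 26.9) at 10 to 20 Mb and 22.8% (19.6 to 26.4) beyond 50 Mb. Within 2 Mb there were 30 isolated TOP2A peaks per 1000 control Pol II peaks, against 11.8 to 18 in the bands farther out. Over the whole set the median distance to the centromere was 39.8 Mb for unpaired and 42.7 Mb for paired peaks.

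The 18 unpaired peaks within 2 Mb lay on 6 chromosomes. Chromosome 21 held 6, chromosomes 2, 17 and 20 held 3 each, chromosome 15 held 2 and chromosome 4 held 1. The 2 nearest to a centromere were on chromosome 21, from 11167115 to 11167189 at 121 kb and from 11109202 to 11109303 at 179 kb, both over 1 Mb from control Pol II. On chromosome 20 from 29611319 to 29611394 the peak lay 242 kb from the centromere and stood 107, 420 and 382 bp from Pol II in the control, 30 min and 1 h lists. On chromosome 17 from 21906670 to 21906747 it lay 356 kb from the centromere and 452 kb from Pol II, and on chromosome 4 from 49216303 to 49216376 it lay 444 kb from the centromere and 304 kb from Pol II. Of the 18, 13 were over 10 kb from Pol II and 8 over 100 kb, and their median distance to Pol II was 60 kb, against 15.1 kb for the other 304. Closeness to a centromere thus did not always go with distance from Pol II.

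These 18 peaks also had a larger median width than the other unpaired peaks. It was 93.5 bp, with quartiles at 76.5 and 121 bp, against 78 bp, with quartiles at 73 and 94 bp, for the other 304. Only 1 of the 18 stood at 73 bp (5.56%, 0.988 to 25.8), against 127 of the other 304 (41.8%, 36.4 to 47.4), and 3 spanned at least 150 bp (16.7%, 5.84 to 39.2), against 8 of the others (2.63%, 1.34 to 5.11). The paired peaks within 2 Mb of a centromere numbered 4 on chromosome 17, 2 each on chromosomes 10 and 20 and 1 each on chromosomes 1, 2, 3, 4, 6 and 8. None was on chromosome 15 or 21, which held 8 of the 18 unpaired ones. A paired peak needs Pol II, which was sparse there. The chromosome 15 pair stood over 2 Mb from Pol II in every list. The chromosome 21 stretch held 1 Pol II peak in the control list, 1 at 1 h and 0 at 30 min. The lack of paired peaks on these 2 chromosomes is thus partly built in by the selection. Regions known to give signal whichever antibody is used were not removed. Repeats beside centromeres were not examined, and their part in these counts was not tested.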

How the data were processed

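Per the submitters' processing notes, reads were aligned with Bowtie 1.2.0 to hg19, peaks were called with MACS2 and deepTools 2.4.1 was used. Of the threshold, the background library and the way replicates were joined, the sources used here give nothing. The deposited files give for each peak only a start and an end in bp, with no other value. The position of a peak was thus the 1 measure used, counted from 0 in the files and printed from 1.

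Peaks were taken as overlapping when they shared at least 1 bp. Distances ran from edge to edge, so that touching peaks stand at 1 bp. Shares have 95% Wilson intervals, and 3 counts set the limit for a count of 0. Centromeres were the 3 Mb gaps of hg19, entered by hand from general knowledge of the assembly and not read from a file. No sequence or gene annotation of hg19 was used here, so regions carry no gene names. Density per 100 Mb used the span between the outermost peaks of each chromosome.

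The text names the 5 widest unpaired peaks, the 5 farthest from and nearest to Pol II, the 5 nearest to a centromere, the closest pairs and those at the limits of the selection. Groups, windows and differences between lists were chosen after their values were seen. The peaks and comparisons were chosen with earlier results of these data known. The interval functions were checked on simulated lists against bedtools 2.31.1. Software was Python 3.11.15, scipy 1.17.1, pandas 2.3.3, numpy 2.4.6 and matplotlib 3.10.9.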

Additional observations from a re-analysis of the deposited data

How the results depend on the processing

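With 1 pooled list a condition, no library could be left out. No paired analysis was possible because the lists join the libraries of each condition. The number of unpaired peaks stayed between 242 and 371 when Pol II within 1 kb counted as contact, when the control list alone counted, when Pol II lists were given like limits (those of the 1 h list) and when spacing from other TOP2A peaks was set to 5 kb or dropped.

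Leaving out TOP2A peaks at 73 bp left 194 unpaired peaks, with median widths of 91 bp for unpaired and 97 bp for paired peaks. Over all TOP2A peaks on Pol II, 25.3% stood at 73 bp. When only Pol II peaks of 300 bp or more counted, the median distance to control was 37.5 kb, and other distance settings moved no list's median beyond its interval. With that limit the medians were 31.9 kb for 30 min and 31.5 kb for 1 h. Control was thus the farthest list both here and with like limits, though it was the nearest as deposited. The intervals of the medians overlapped between lists in each of these settings. The share over 5 kb from Pol II was 64.9%, and over 50 kb 28.6%.

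Shares near centromeres fell with the window by construction, for unpaired peaks to 5.59% at 2 Mb and 3.42% at 1 Mb, with 15.5% at 10 Mb. For paired peaks they were 1.35%, 0.482% and 10.1%, and for control Pol II 1.23%, 0.375% and 12.3%. With the widest stretch without peaks in place of the gap, the shares within 5 Mb were 9.32% of unpaired, 8.10% of paired and 7.83% of control Pol II peaks. That stretch held the gap on only 12 of 22 chromosomes. Without chromosomes 13, 14, 15, 21 and 22, 7.17% of unpaired, 5.11% of paired and 5.28% of control Pol II peaks lay within 5 Mb. Chosen after seeing the data, the share within 2 Mb without those chromosomes was 3.41% of unpaired and 1.49% of paired peaks, and without chromosome 21 3.81% and 1.37%. With only TOP2A peaks of at least 100 bp it was 9 of 66 unpaired peaks (13.6%, 7.34 to 23.9) and 5 of 342 paired peaks (1.46%, 0.626 to 3.38). These 9 include the chromosome 15 pair and the chromosome 21 peaks of 468 and 102 bp. Chromosome 19 had 0.881 times the overall density of unpaired peaks per Mb and 0.285 times per control Pol II peak.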

Other observations

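Outside chromosomes 1 to 22, 5 of 15 TOP2A peaks on chromosome X lay on no Pol II list, 1 of them 165 bp from Pol II at 1 h and the others 68.7 to 482 kb from the nearest Pol II peak. The TOP2A list also held 1 peak on chromosome Y, from 13489100 to 13489174, a chromosome with 0 Pol II peaks in the control list. No distance to Pol II could be given for it in any list. Whether the reads placed there came from chromosome Y was not tested. Of the 37 TOP2A peaks on no Pol II list that were left out for a TOP2A neighbour within 1 kb, 4 (10.8%, 4.29 to 24.7) lay within 0.5 Mb of a centromere. The shares were 1.86% of unpaired and 0.0964% of paired peaks. Since the 37 were chosen for a close neighbour, the 4 need not be separate sites and their interval is too narrow.

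The first TOP2A peak of chromosome 1, from 10478 to 10552, stood 703 kb from Pol II in every list, close to the start of the chromosome. Whether it lies in a region that gives signal whichever antibody is used was not tested.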
